A study of Mus musculus with 96 samples.

Results

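The genes described here are those of the cytosolic ribosomal proteins, the protein part of the ribosomes that translate nuclear-encoded mRNA. They were chosen by name, as Rpl or Rps followed by a number and at most a short ending that marks a variant or paralog, together with Rplp0, Rplp1, Rplp2 and Rpsa. The rule found 88 of the 41575 gene symbols in the count table, 54 named for the large subunit and 34 for the small subunit. The annotation gives 84 of them as protein coding and 4, Rpl32l, Rpl6l, Rps12l1 and Rps4l, as processed pseudogenes. Of these, 80 had a count in at least 1 library, and Rpl10a, Rpl10l, Rpl6l, Rps10, Rps12l1, Rps18, Rps28 and Rps4l were at 0 in every library. The study sequenced bulk RNA of 16 tissues from 3-week-old wild-type mice and Scx knockout (Scx-/-) mice, with 3 libraries per tissue and genotype and 96 in all. Scx encodes scleraxis, a transcription factor of tendon and ligament progenitors. No other allele or treatment was named for either group, and how the Scx-/- line was made was not given in the sources used here. Which libraries came from the same mouse, and the sex of the mice, were not given, so the p-values below measure the spread between libraries.

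A ribosome is built from a large and a small subunit, each a core of ribosomal RNA covered by ribosomal proteins, nearly all of them present in a single copy. The mRNAs of these proteins belong to the terminal oligopyrimidine (TOP) class, which begins with a C and a run of C and U and whose translation is tuned by mTOR signalling. Some mammalian ribosomal proteins have a paralog encoded by another gene, such as Rpl3l for Rpl3, and many processed pseudogenes of ribosomal proteins are scattered over the genome.

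Libraries held between 11244 and 1658192 counts (median 251640), and 16 were under 100000. The markers of a tissue had their highest summed level in that tissue in 13 of 16 tissues. In adipose libraries the 6 fat markers summed to 55.0 CPM (library counts scaled to a common total of 1000000) on average, with 2 of the 6 at 0, and 10 pancreatic acinar genes summed to between 394300 and 506400 CPM, so these libraries did not carry a fat profile. In vascular libraries the smooth muscle markers averaged 24030 CPM, below the 29350 CPM of bladder, and 5 brown fat genes summed to between 3655 and 13250 CPM. The hippocampus markers averaged 6156 CPM in hippocampus and 8077 CPM in cortex. Scx had 80 counts over the wild-type libraries, in 12 of 48 of them, and 9 counts over the Scx-/- libraries, all in the cartilage library labelled Scx-/- replicate 1. Such counts go against the label of that library, and whether they reflect its genotype was not tested. For short it is called below the library that goes against its label. The tests between genotypes in cartilage and over all tissues, and the tally of tissue shares, are also given without it.

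The start of a ribosomal protein mRNA is its best known shared sequence. RefSeq promoters (GRCm38.p6) were listed for 65 of the 88 genes. In 13 of them (20%) the annotated start base was a C followed by 4 pyrimidines, against 2.49% of 27025 promoters. A run of at least 8 pyrimidines lay between 10 bases before and 20 after the start in 33.8% of the ribosomal protein promoters and 11.2% of all, and the median longest run there was 6 bases against 4. The letters CCGGAAG, on either strand of the 300 bases, were found in 38.5% against 9.12%, and GATGGCG, on either strand, in 7.69% against 3.66%. On its other strand CCGGAAG reads CTTCCGG, which can share bases with a pyrimidine run, and a match describes the letters and not a bound factor. Below are 30 bases around the annotated start for 3 genes with such a run and for the paralogs Rpl3l and Rps27l, whose levels differ widely between tissues. Capitals mark the unbroken run of C and T that holds the start base, which is base 16 of each line.
Rps6: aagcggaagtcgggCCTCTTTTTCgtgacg
Rplp2: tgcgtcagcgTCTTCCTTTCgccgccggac
Rps24: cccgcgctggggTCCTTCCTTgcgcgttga
Rpl3l: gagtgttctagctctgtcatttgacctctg
Rps27l: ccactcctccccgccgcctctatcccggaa
The windows are chr4:86857353-86857382 (minus strand) for Rps6, chr7:141447636-141447665 (plus) for Rplp2, chr14:24490663-24490692 (plus) for Rps24, chr17:24727811-24727840 (plus) for Rpl3l and chr9:66946071-66946100 (plus) for Rps27l. Each spans the promoter and the first bases of the first exon. The annotated start bases of Rpl3l and Rps27l lie in no pyrimidine run, and neither do those of Rplp0, Rpl4, Rps15 and Rpsa.

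Together the ribosomal protein genes took 3.09% ± 0.402 of library counts in bladder (mean ± SD, n = 6 libraries of both genotypes), 2.97% ± 0.533 in spleen and 2.87% ± 0.964 in rectum. The share was lowest in cortex, at 0.785% ± 0.047, and in hippocampus, at 0.818%. The highest tissue mean was 3.94 times the lowest. Between these came bone (1.74%), intestine (1.71%), stomach (1.69%), kidney (1.30%), cartilage (1.28%), adipose (1.25%), lung (1.23%), vascular (1.18%), heart (1.06%), muscle (1.04%) and liver (0.872%). Every library of bladder, spleen and rectum was above every library of the other 13 tissues, the nearest values being 2.17% in a wild-type rectum library and 2.03% in an Scx-/- bone library. Within the top 3 tissues, and between each tissue and its neighbour lower down the order, libraries overlapped. In bulk samples, fewer cells of a type and less RNA per cell cannot be told apart, and a share of counts also falls where a few other genes take more.

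**Figure D1:**
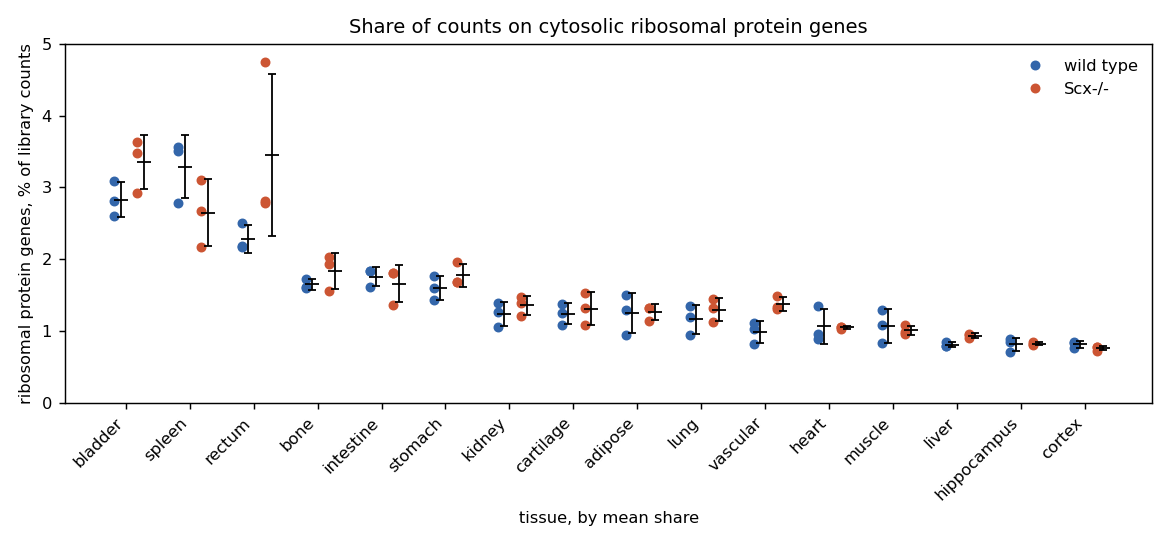
Share of library counts on the 88 ribosomal protein genes (y axis, percent) by tissue (x axis, ordered by mean), with a point for each library, wild type in blue and Scx-/- in orange, and bars for the mean and SD of 3 libraries. All libraries of bladder, spleen and rectum lie at or above 2.17%, and 1 Scx-/- rectum library reaches 4.75%.

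The order changed where other abundant genes were taken out of the total. Without the 24 mitochondrially encoded genes, which took 0.409% to 27.7% of counts, and the 20 most abundant other genes, adipose had the highest share (4.97%), followed by spleen and bladder, and cortex stayed lowest (0.920%). The digestive enzyme mRNAs of the adipose libraries are among the counts this removes. Adding the pseudogenes to the sum left the same tissues at the top and the bottom. The shallowest library, wild-type heart replicate 2 with 11244 counts, had a share of 1.34%, with an exact binomial 95% interval of 1.14% to 1.57% that covers counting error only.

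A few genes carried most of the signal. The 10 highest genes made 55.3% of all ribosomal protein counts, and large-subunit genes made 56.3%. Rplp1, an acidic protein of the stalk that recruits translation factors, had the highest mean level over the 96 libraries at 1732 CPM, followed by Rpl4 (1039 CPM), Rps14 (1026 CPM), Rps20 (882 CPM) and Rplp0 (734 CPM). Per kilobase of coding sequence the order was different. Rpl41, which encodes the shortest ribosomal protein, came to 7639 CPM per kilobase, Rplp1 to 5064, Rpl39 to 2708, Rps20 to 2470 and Rps14 to 2265, while Rpl4 came to 827. The method enriches the 3′ ends of RNA, so counts need not grow with length, and neither order is a ranking of mRNA abundance. At the other end, only 18 genes had a count in every library, and 58 reached a mean of 10 CPM in at least 8 tissues. Across the 16 tissue means these 58 genes tended to move together, with a median pairwise Pearson correlation of 0.613 and 99.0% of pairs above 0. The points of such a correlation share their libraries and depth, so it is given as a description.

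**Figure D2:**
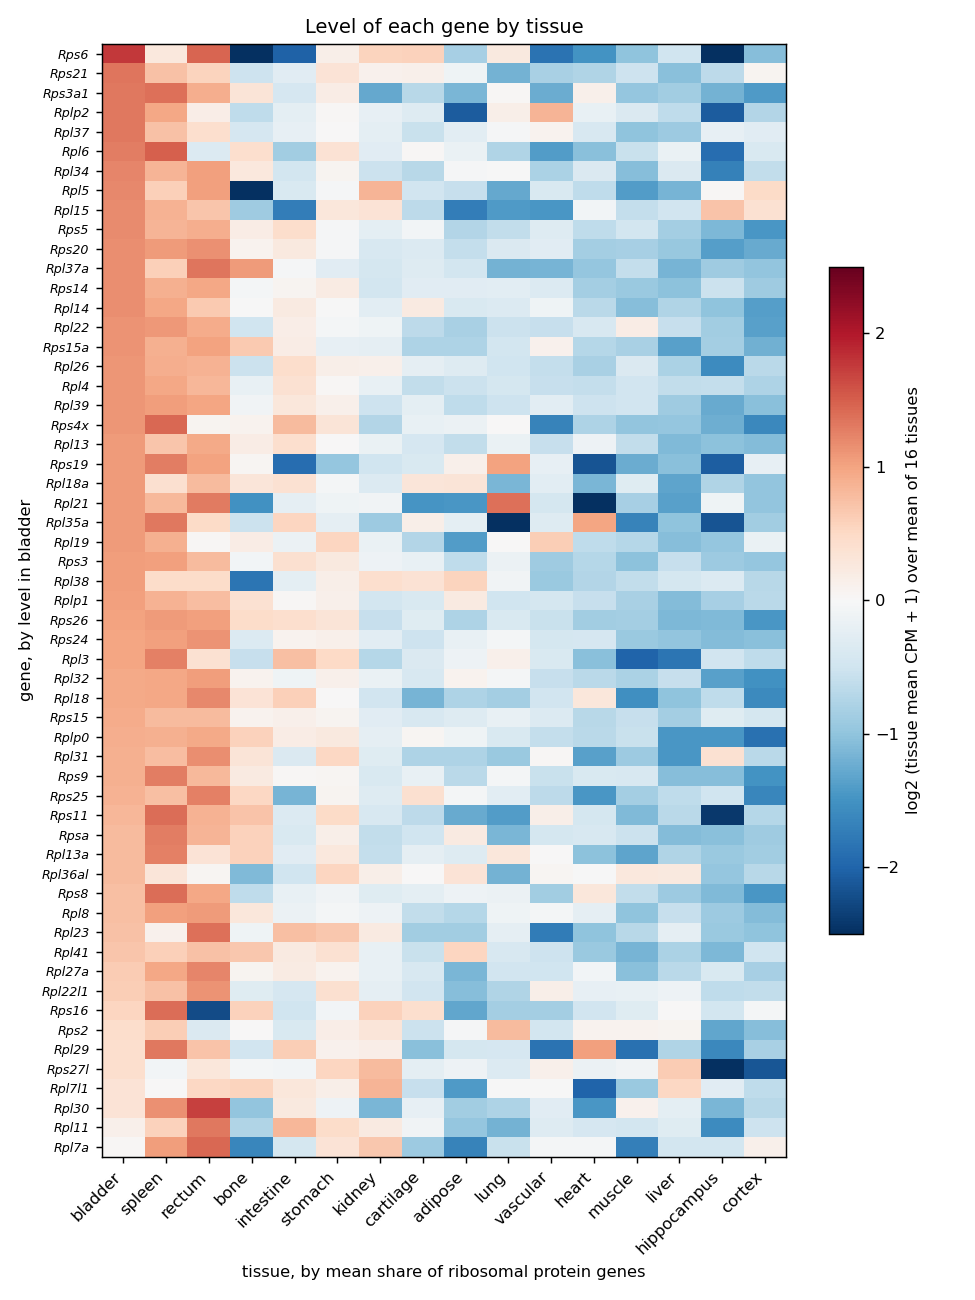
Level of 57 of the 58 genes with a mean of at least 10 CPM in at least 8 tissues (y axis) in 16 tissues (x axis, ordered by share), as log2 of the tissue mean CPM + 1 over the mean of the 16 tissues, red higher and blue lower. Bladder, spleen and rectum are red for most genes, cortex and hippocampus blue, and Rps27l has its lowest level in hippocampus (31.9 CPM) and a high one in liver (371 CPM).

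To ask which genes differ in which tissue, each tissue was compared with the mean of the other 15 in 1 edgeR quasi-likelihood fit of 13459 genes, 65 of them ribosomal protein genes, with TMM scaling. Differences below are log2 fold differences from that fit, with standard errors and adjusted p-values over all 13459 genes. Any difference among tissues was called for 51 of the 65 genes, beside 81.3% of all genes.

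In bladder 43 of 65 genes were higher, against 20.4% of all genes, and none was lower, against 0.438%. The median log2 difference was 1.13, beside 0.51 over all genes tested. With RLE scaling the count was 24 (against 13.4% of all genes), beside 40 in spleen (20.4%) and 27 in adipose (4.16%). In wild-type libraries alone it was 21 of 62 (14.7%), beside 30 in spleen (15.1%). Rps20 measured 1823, 1754 and 1486 CPM in wild-type and 2080, 2122 and 2613 CPM in Scx-/- bladder libraries, and was higher than in the other tissues by 1.25 ± 0.21 (adjusted p = 1.47e-07). Rps6, the protein that S6 kinase phosphorylates, was higher by 2.49 ± 0.42 (adjusted p = 2.00e-07). Its bladder libraries ranged from 43.5 to 152.9 CPM. Rplp2, which pairs with Rplp1 in the stalk, was called in bladder alone among the 16 tissues (1.55 ± 0.45, adjusted p = 0.0055), at 23.8 to 98.8 CPM.

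Spleen had 34 higher genes, against 18% of all genes, and none lower, against 2.67%. In Scx-/- libraries alone the higher count was 19 of 59, against 10.1%. The median was 1.09, beside 0.06 over all genes. Rpsa, which is both a small-subunit protein and a laminin receptor, measured 777, 886 and 880 CPM in wild-type and 983, 530 and 787 CPM in Scx-/- spleen libraries, higher by 1.51 ± 0.24 (adjusted p = 2.11e-08). Rps9, a small-subunit protein near the mRNA entry, was higher by 1.47 ± 0.21 (adjusted p = 3.49e-10). B cell markers summed to between 1107 and 3012 CPM in spleen, 10 proliferation genes to between 846 and 6735 CPM and 6 erythroid genes to between 11440 and 69250 CPM, each list highest there. Pancreatic acinar genes ranged from 51.3 to 74030 CPM among the spleen libraries. Their part in these differences was not tested.

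Rectum had 14 higher genes, against 10.1% of all genes, with a median of 0.71 beside 0.20. Rps6 was higher by 2.00 ± 0.54 (adjusted p = 0.00383) and Rpl36 by 3.66 ± 0.87 (adjusted p = 0.00068). The rectum count was the least stable of the 3. It was 6 of 72 without the libraries under 100000 counts, beside 962 of 16205 genes, 22 of 59 in Scx-/- libraries alone, beside 1385 of 11858, and 0 of 62 in wild-type libraries alone, beside 888 of 12022, and 32 with library totals as the scale, against 18% of all genes.

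The brain tissues went the other way. In cortex 20 genes were lower, against 2.84% of all genes, and 5 were higher, against 39.4%. In hippocampus 24 were lower, against 3.71% of all genes, and none higher, against 22.7%. The hippocampus count was 11 with RLE (against 2.32% of all genes) and 12 of 62 in wild-type libraries alone (3.22%), and the cortex count was 7 of 62 in wild-type libraries alone (2.26%). The median difference was -0.44 in cortex, beside 0.71 over all genes, and -1.03 in hippocampus, beside 0.01. Rplp0, the scaffold of the stalk, measured 188, 165 and 227 CPM in wild-type and 192, 200 and 238 CPM in Scx-/- cortex libraries. The same gene ranged from 1082 to 1749 CPM in bladder, with no overlap. It was lower in cortex by 1.62 ± 0.28 on the log2 scale (log2 difference -1.62, adjusted p = 7.81e-08) and in hippocampus with a log2 difference of -1.54 ± 0.28 (adjusted p = 1.16e-06). Rpl32, of the large subunit, had a log2 difference of -1.27 ± 0.28 in cortex and -1.71 ± 0.32 in hippocampus. The 5 genes called higher in cortex were Rpl15 (1.20 ± 0.45), Rpl5 (1.11 ± 0.44), Rpl36, Rpl12 and Rpl17. Rpl15 measured between 22.3 and 62.2 CPM in cortex libraries. Rpl15 and Rpl5 averaged 39.8 and 38.9 CPM in cortex, below 70.6 and 65.45 CPM in bladder. Rpl36, Rpl12 and Rpl17 averaged 11.7, 5.16 and 6.22 CPM in cortex, which was below 38.9 CPM in rectum for Rpl36, 29.7 CPM in spleen for Rpl12 and 41.2 CPM in bone for Rpl17. The fit averages the log levels of the other 15 tissues, several of them at or near 0 for these 3 genes. None of the 5 calls shows a level above every other tissue. Gm10275, whose transcript matches that of Rpl12 with 100% identity, averaged 262.5 CPM in cortex and 1106 CPM in spleen. Rpl36 had 258 counts beside 1579 on its pseudogenes. The calls of Rpl12 and Rpl36 thus rest on few of the reads of such sequences.

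In adipose the call depended on the scale. With TMM 19 genes were higher, against 3.11% of all genes, with a median of 0.80 beside -1.35 over all genes tested. With RLE 27 were higher (4.16% of all genes). In wild-type libraries alone 5 of 62 were higher (Rpl32, Rpl41, Rplp0, Rplp1 and Rpsa, against 2.03% of all genes) and in Scx-/- libraries alone 26 of 59 (6.08%), a difference that was not tested. With library totals as the scale 1 gene was higher (Rpl41), against 1.78% of all genes, and 1 was lower (Rpl27a), against 13.5%. TMM factors of adipose libraries ran from 0.305 to 0.691, the lowest of all tissues, beside the pancreatic acinar genes that made over 394300 CPM of each. Rpl41, which measured 692, 826 and 988 CPM in wild-type and 810, 713 and 946 CPM in Scx-/- adipose libraries, had the smallest adjusted p with TMM (log2 difference 1.97 ± 0.22, adjusted p = 6.77e-15).

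In the other tissues few ribosomal protein genes were called. Higher genes numbered 5 in stomach (against 16.5% of all genes), 3 in kidney (23.4%), 3 in liver (16.5%), 2 in heart (10.3%), 3 in muscle (16.9%), 1 in cartilage (10.9%) and 1 in bone (5.54%). Lower genes numbered 6 in lung (against 1.92%), 5 in heart (1.06%), 3 in vascular (0.825%) and 1 in intestine (2.07%). The lung count was 1 with RLE (against 1.02% of all genes), with library totals (1.15%), without the libraries under 100000 counts (1.05%) and in wild-type (1.04%) or Scx-/- libraries alone (1.45%), and the vascular count was 0 with library totals (0.542% of all genes). The heart count was 9 with RLE (against 1.52% of all genes), 0 of 62 in wild-type libraries alone (0.266%) and 1 of 59 in Scx-/- libraries alone (Rps26, 0.692%). With RLE kidney had 1 higher (16.9%) and 7 lower genes (1.10%), and stomach had none higher (9.96%). The single gene of cartilage and of bone was Rpl3l, in libraries that also carried the skeletal muscle markers given with Rpl3l below. It was also higher in heart, beside Rpl9 (2.78 ± 0.96), and in muscle, beside Rps27l (0.79 ± 0.27) and Rpl30 (1.88 ± 0.70). Stomach had Rps27l, Rpl23 (1.29 ± 0.38), Rpl31, Rpl41 and Rps26, kidney had Rps27l, Rpl7l1 and Rpl5, and liver had Rps27l, Rpl7l1 and Rpl36al. The lower genes of heart were Rps26 (-1.02 ± 0.30), Rpl41, Rpl7l1, Rps14 and Rpl31, and those of vascular were Rps3 (-1.07 ± 0.31), Rpl4 and Rpl23. With library totals, liver had 1 higher (Rps27l, against 10.5%) and 14 lower genes (4.74%), muscle 1 higher (Rpl3l, 8.37%) and 5 lower (Rpl13a, Rpl41, Rpl8, Rplp1 and Rps14, 2.65%), and bone 8 higher (7.29%). The intestine gene was Rpsa, with a log2 difference of -1.18 ± 0.41 (adjusted p = 0.0485), which turned to 0.47 without the libraries under 100000 counts. In lung Rpsa measured 170, 171 and 244 CPM in wild-type and 198, 83.5 and 37.3 CPM in Scx-/- libraries, with a log2 difference of -1.49 ± 0.36 (adjusted p = 5.70e-04).

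**Figure D3:**
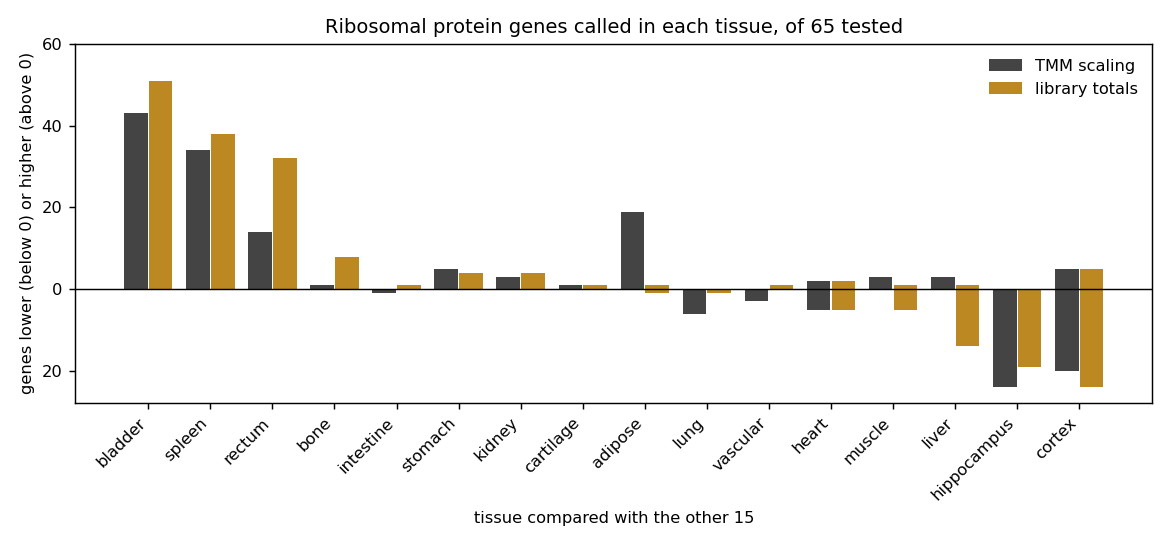
Number of the 65 tested ribosomal protein genes called higher (above 0) or lower (below 0) in each tissue (x axis) than in the other 15, with TMM scaling (grey) and with library totals (ochre). Bladder (43 with TMM), spleen (34), cortex (20 lower) and hippocampus (24 lower) keep their direction under both scales, while adipose falls from 19 higher to 1.

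Several of the genes have known roles beyond bulk translation. Rps19, mutated in Diamond-Blackfan anaemia, was low throughout, at 14.0 CPM over all libraries, and was higher in spleen (2.00 ± 0.60, adjusted p = 0.00672) and bladder (1.57 ± 0.55, adjusted p = 0.0266). Rpl5 and Rpl11 bind Mdm2 together with 5S rRNA. Rpl5 was higher in bladder, kidney and cortex, by 1.45 ± 0.46, 1.32 ± 0.46 and 1.11 ± 0.44. Rpl11 was called in hippocampus alone among the 16 tissues, with a log2 difference of -1.63 ± 0.55 (adjusted p = 0.0143). That call covers only reads on the Rpl11 row, at 25.5 CPM in hippocampus. Gm10288, whose transcript matches that of Rpl11 with 99.8% identity, averaged 275 CPM in hippocampus and 229 CPM in cortex. Rpl13a, known for the interferon-gated silencing complex, was higher in spleen by 1.42 ± 0.25 (adjusted p = 5.48e-07), where its mean was 672 CPM. Rpl38, whose loss disturbs axial patterning in mice, averaged 96 CPM in bladder and 12 CPM in bone and was called higher in bladder (1.14 ± 0.38) and, with TMM, in adipose (1.95 ± 0.49). Rps25, needed for some internal ribosome entry sites, had a log2 difference of -1.26 ± 0.49 in cortex (adjusted p = 0.0256). Rpl10a had no count in any library and gave no value, while a pseudogene of it did, as described below.

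The share of the ribosomal protein total taken by each gene shows which genes kept step with the rest. Over the 16 tissues the SD of the log2 share was smallest for Rpl13 (0.196), Rpl39 (0.205), Rplp1 (0.207), Rpl4 (0.208) and Rps14 (0.208). These rankings cover the 58 genes that reached 10 CPM in at least 8 tissues, which leaves out Rpl3l. Among the largest were those of Rpl15 (0.979), Rps27l (0.934), Rps6 (0.934) and Rpl7l1 (0.880), of which Rpl15 and Rps6 had low levels, with a tissue mean of Rps6 down to 3.48 CPM, and are read from few counts. Rps27l and Rpl7l1 were the better counted of these. Rplp1 ranged from 817 CPM in liver to 3525 CPM in bladder, in step with the total.

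Rpl3l, the paralog of Rpl3 known from striated muscle, had the sharpest tissue pattern. It measured 1348, 647 and 534 CPM in wild-type and 892, 742 and 1047 CPM in Scx-/- muscle libraries. In cartilage it measured 482, 419 and 348 CPM in wild-type and 426, 643 and 493 CPM in Scx-/- libraries, the 426 CPM being the library that goes against its label. Heart libraries were uneven, at 259, 0 and 348 CPM in wild type and 288, 12.5 and 178 CPM in Scx-/-, the 0 being the library of 11244 counts. In bone it was 104, 0 and 233 CPM, and 116, 32.2 and 0 CPM. The log2 difference from the other tissues was 8.07 ± 0.31 in muscle (adjusted p = 2.80e-74), 6.76 ± 0.35 in cartilage (5.76e-50), 5.49 ± 0.43 in heart (2.34e-27) and 3.80 ± 0.63 in bone (3.31e-07). The 5 skeletal muscle markers moved with it. They summed to a mean of 213100 CPM in muscle, 108200 CPM in cartilage (96370 to 122200) and 48530 CPM in bone (19230 to 79150), with no marker at 0, and to at most 4957 CPM in any other tissue, in rectum. Their part in the Rpl3l level of cartilage and bone was not tested. Means elsewhere did not pass 28 CPM, in rectum.

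The parent gene Rpl3 had 698 counts in all and its pseudogene Rpl3-ps1 had 7621, so Rpl3l was set against both. Rpl3l made 94.9% ± 4.49 of the 3 in wild-type and 94.0% ± 1.04 in Scx-/- muscle, and 75.2% ± 4.43 and 75.1% ± 5.39 in cartilage. In heart it made 84.2% ± 1.42 in the 2 wild-type libraries with counts and 42.7% ± 31.6 in Scx-/-, where libraries ranged from 8.0% to 70.0%. In spleen and intestine it had no count. Rpl3-ps1 was lowest in muscle (39.2 CPM) and highest in spleen (606 CPM).

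Rps27l, a paralog of Rps27 induced by p53, had 7790 counts, against 29 for Rps27 and 498 for Rps27rt, a copy of Rps27 with an identical sequence whose reads cannot be told apart from it. It measured 411, 652 and 325 CPM in wild-type and 301, 301 and 238 CPM in Scx-/- liver libraries, and 389 to 440 CPM in kidney. In hippocampus its libraries measured 0, 32.5 and 7.0 CPM in wild type and 57.9, 43.0 and 50.9 CPM in Scx-/-, below every liver and kidney library. The log2 difference was -3.23 ± 0.45 in hippocampus (adjusted p = 1.16e-10) and -1.92 ± 0.34 in cortex (1.85e-07), and 1.58 ± 0.25 in liver (7.30e-09), 1.02 ± 0.25 in kidney (6.02e-04) and 0.94 ± 0.26 in stomach (0.00357).

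The other paralogs varied less or were read from few counts. Rpl7l1 was higher in liver (1.41 ± 0.35, adjusted p = 6.86e-04) and kidney (1.03 ± 0.34, adjusted p = 0.0144), with 2446 counts in all against 170 for Rpl7 and 1157 for its pseudogene Rpl7-ps7. Rpl36al was higher in adipose (1.90 ± 0.38, adjusted p = 6.57e-05), liver (1.17 ± 0.34, adjusted p = 0.00599) and bladder (0.87 ± 0.33, adjusted p = 0.0473), the first 2 not called with library totals and the last not with RLE, with 2618 counts against 34 for Rpl36a and 4365 on the pseudogenes of Rpl36a. Rpl22l1 made between 1.24% and 29.5% of the Rpl22l1 and Rpl22 counts summed within a tissue and genotype, both extremes in adipose. Rpl39l, known from testis, had 31 counts, 20 of them in bone and 11 in bladder. Rpl10l and Rps4l, the latter annotated as a pseudogene, had none, beside 91 for Rpl10, 346 on the pseudogenes of Rpl10 and 1122 for Rps4x.

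**Figure D4:**
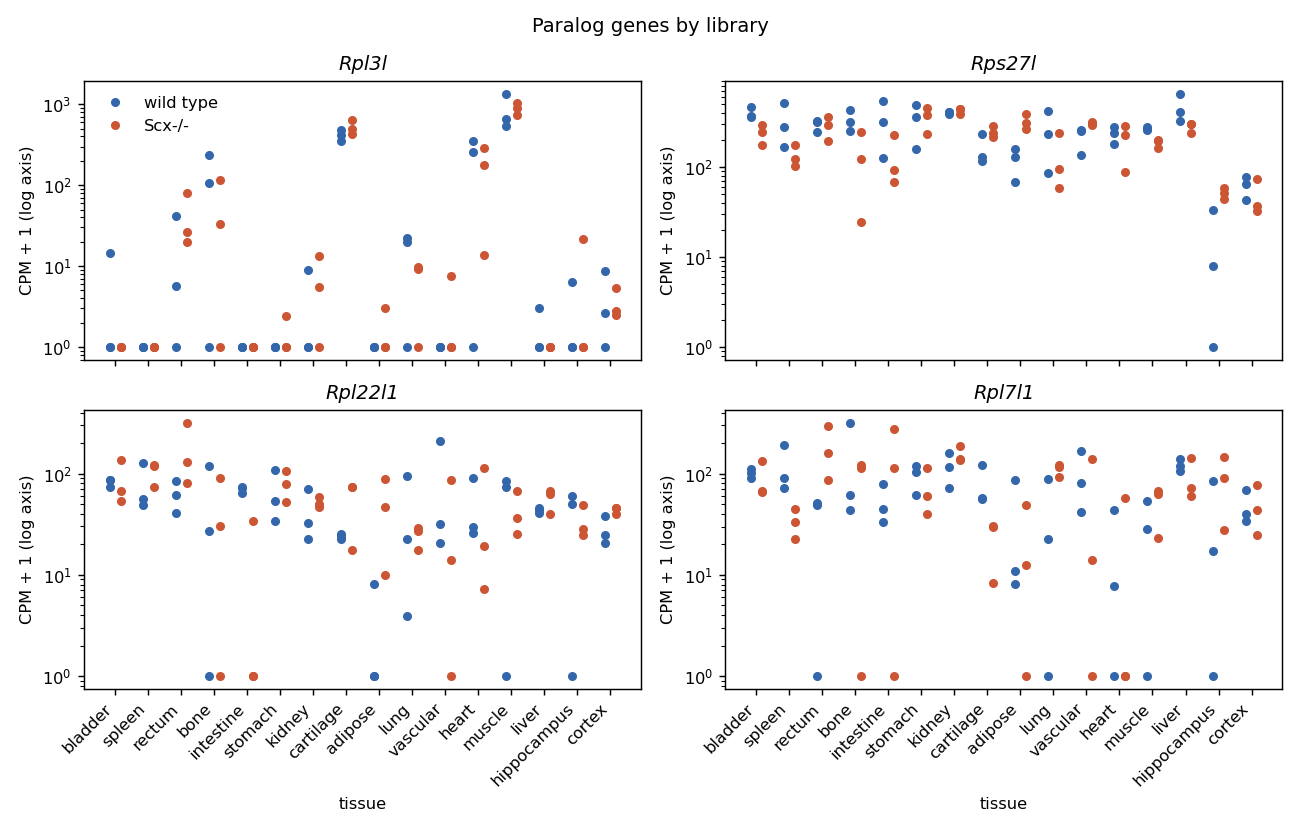
Levels of Rpl3l, Rps27l, Rpl22l1 and Rpl7l1 as CPM + 1 on a log axis (y) in every library by tissue (x, ordered by ribosomal protein share), wild type in blue and Scx-/- in orange. Rpl3l reaches 1348 CPM in muscle and is at or near 0 in most tissues, and Rps27l is lowest in cortex and hippocampus.

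The study asked what the loss of Scx changes across organs. The summed share of ribosomal protein genes did not overlap between genotypes in 3 tissues, liver, rectum and vascular, and was higher in Scx-/- libraries in each. In liver the wild-type libraries held 0.786%, 0.793% and 0.845% and the Scx-/- libraries 0.945%, 0.902% and 0.959%. Rectum wild-type libraries held 2.51%, 2.18% and 2.17% and Scx-/- libraries 4.75%, 2.79% and 2.81%. Vascular wild-type libraries held 0.811%, 1.03% and 1.11% and Scx-/- libraries 1.30%, 1.49% and 1.33%. No tissue was lower without overlap, and the Scx-/- mean was higher in 11 tissues and lower in 5, with or without the cartilage library that goes against its label. Since the share is a sum over chosen genes, no p-value is given for it.

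Other things moved with it in the same tissues. The 5 rectum markers summed to between 4962 and 8279 CPM in wild-type rectum and between 191 and 2904 CPM in Scx-/- rectum, with no marker at 0 over the 6 libraries. The 5 liver markers summed to 127700 to 138100 CPM in wild-type and 98630 to 127700 CPM in Scx-/- liver. B cell markers there summed to 12.5 to 32.6 CPM in wild type and 1.7 to 10.4 CPM in Scx-/-, and pancreatic acinar genes to 268 to 469 CPM and 473 to 762 CPM. The 5 brown fat genes summed to 7153 to 13250 CPM in wild-type and 3655 to 6163 CPM in Scx-/- vascular libraries. Their part in the difference was not tested. The absence of overlap held in all 3 tissues without the mitochondrially encoded and 20 most abundant genes, with the pseudogenes added, and without Rpl3, Rpl34, Rpl26 and Rpl29.

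Single genes were counted in the same way only in these tissues, chosen because their summed share was higher in Scx-/- without overlap. More higher than lower genes follows in part from that choice and is no separate result. Among genes at 50 CPM or more, 7 of 31 ribosomal protein genes were higher without overlap in Scx-/- liver, against 7.67% of all genes, and 1 was lower, against 8.65%. Those higher were Rpl27a, Rpl4, Rpl8, Rplp0, Rps15, Rps20 and Rps9, and the lower was Rps27l. Rpl4, a large-subunit protein that lines the exit tunnel, measured 488, 477 and 550 CPM in wild-type and 730, 936 and 896 CPM in Scx-/- liver. In rectum 12 of 46 were higher, against 8.13%, and none lower, against 5.19%. Rpl13a there measured 225, 253 and 161 CPM in wild type and 584, 507 and 398 CPM in Scx-/-. In vascular 6 of 35 were higher, against 6.68%, and none lower, against 4.92%. They were Rpl13a, Rpl4, Rpl41, Rps14, Rps15a and Rps27l. Rps15a measured 180, 155 and 147 CPM in wild-type and 491, 674 and 447 CPM in Scx-/- vascular libraries.

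No ribosomal protein gene passed the test between genotypes in any tissue. The test had little power, so this does not show an absence of change. In data simulated from the spleen libraries it recovered 1 of 200 genes changed 4-fold and 49 of 200 changed 16-fold. Those genes were drawn at all levels. With edgeR on the 6 libraries of each tissue, 0 of 65 to 79 genes tested had an adjusted p below the threshold of 0.05, and 1 to 7 per tissue had an unadjusted p below it, beside 2.76% to 5.26% of all genes. Liver had 7 of 71, beside 5.18% of all genes, and stomach 7 of 75, beside 3.69%. DESeq2 also called 0 in each tissue, beside all-gene shares of 0.119% in bladder, 0.078% in kidney, 0.0135% in stomach and 0.0% in cartilage. Without the library that goes against its label, cartilage had 0 of 70 called, against 0.0384% of all genes, and 1 of 70 with an unadjusted p below 0.05, beside 2.58% of all genes. Over all genes the share called was 0.442% in liver, 0.441% in rectum, 0.195% in kidney, 0.112% in bladder, 0.0609% in stomach, 0.0482% in muscle, 0.0391% in heart, 0.0329% in vascular, 0.0222% in cartilage, 0.0091% in adipose, 0.00727% in lung, 0.0072% in spleen and 0.00708% in hippocampus, and 0.0% in bone, cortex and intestine. The smallest adjusted p was 0.124 for Rpl3 in stomach (log2 difference 5.92 ± 1.52), followed by 0.148 for Rpl4 in liver (0.94 ± 0.29). The median log2 difference of the ribosomal protein genes was 0.38 in liver, 0.68 in rectum and -0.02 in vascular, beside 0.22, 0.45 and -0.51 over all genes tested there.

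Averaged over the 16 tissues, 2 of 65 genes differed between genotypes, against 0.149% of all genes. Rpl3, a protein of the peptidyl transferase centre, was higher in Scx-/- libraries by 3.90 ± 0.81 (adjusted p = 0.00763), and Rpl34, of the large subunit, had a log2 difference of -2.21 ± 0.53 (adjusted p = 0.0497). Both calls changed with the replicate numbers included. Without replicate 1 neither was called and Rpl29 was called instead. The fit then gave no usable size for Rpl3, whose standard error was far above its log2 difference, and -0.97 ± 0.68 for Rpl34. Without replicate 2 the log2 differences were 4.10 for Rpl3 (adjusted p = 0.649) and -1.58 for Rpl34, neither was called, and Rpl26 was called instead. Without replicate 3 both were called, at 4.69 (adjusted p = 9.08e-07) and -5.22 (adjusted p = 3.39e-11). A further fit took 1 mean over tissues for each genotype and replicate number (limma, 3 against 3, chosen after seeing the data). It called 0 of 65 ribosomal protein genes, against 0.253% of all genes, and Rpl3 had an adjusted p of 0.714. Without the cartilage library that goes against its label, both were still called (log2 differences of 3.94 for Rpl3 and -2.40 for Rpl34, adjusted p = 0.00767 and 0.0198). They were 2 of 68 genes, against 0.146% of all genes. A genotype difference that varied among tissues was called for 0 of 65 genes, against 0.0669% of all genes, and 2 of 65 (Rps27l and Rpl35a, 3.08%) had an unadjusted p below 0.05, against 6.43% of all genes. Without that cartilage library 0 of 68 were called, against 0.0556% of all genes.

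Rpl3, Rpl34, Rpl26 and Rpl29 were the genes that differed among replicate numbers within a genotype across tissues. This test was chosen after the pattern was seen. It called 4 of 65 ribosomal protein genes against 0.490% of all genes, with adjusted p-values of 1.07e-20 for Rpl34, 7.44e-20 for Rpl26, 1.04e-19 for Rpl29 and 9.01e-14 for Rpl3. Without the cartilage library that goes against its label the same 4 genes were called. The next gene, Rps2, had an adjusted p of 0.0515 and was called with RLE scaling and with library totals. All 4 are proteins of the large subunit. They lie on different chromosomes (GENCODE vM21, GRCm38): Rpl3 at chr15:80077791-80091868 on the minus strand, Rpl34 at chr3:130726831-130730398 on the minus strand, Rpl26 at chr11:68901583-68906989 on the plus strand and Rpl29 at chr9:106429454-106431568 on the plus strand. Scx lies at chr15:76457452-76459458.

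Rpl26 showed the pattern most plainly. Its mean over tissues was 488, 4.05 and 456 CPM in wild-type libraries numbered 1, 2 and 3, and 234, 22.5 and 227 CPM in Scx-/- libraries. It had a count in all 16 tissues for both wild-type numbers 1 and 3, and was at 0 in 9 of 16 tissues for wild-type number 2 and in 10 of 16 for Scx-/- number 2. Rpl3 averaged 4.26, 3.25 and 7.32 CPM in the wild-type numbers and 108.5, 8.99 and 5.30 CPM in the Scx-/- numbers, with Scx-/- number 1 highest in 14 of 16 tissues. Rpl34 averaged 129.9, 78.4 and 12.7 CPM, and 12.2, 1.12 and 68.6 CPM. Rpl29 averaged 28.2, 6.59 and 92.2 CPM, and 47.5, 2.57 and 0.0455 CPM, and was at 0 in 15 of 16 tissues for Scx-/- number 3. The same numbers were high or low in organs as unlike as brain and muscle.

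Cartilage and bone of Scx-/- mice were exceptions. The Scx-/- cartilage libraries 1, 2 and 3 had 0, 19 and 1 counts of Rpl3 and 26, 0 and 2 of Rpl34, so the library with Rpl3 counts was number 2 there and not number 1. Their Rpl26 counts were 84, 48 and 10. Scx-/- bone libraries had 1, 14 and 6 counts of Rpl26, with the lowest in number 1. The pseudogene row Rpl3-ps1 showed no such pattern, at 231.5, 223.7 and 242 CPM in wild-type and 314, 259 and 214 CPM in Scx-/- numbers. None of 73 mitochondrial ribosomal protein genes and none of 29 tested pseudogenes was called in this test. Whether the numbers mark animals, pools or runs is not stated in the sources, and the cause was not tested.

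**Figure D5:**
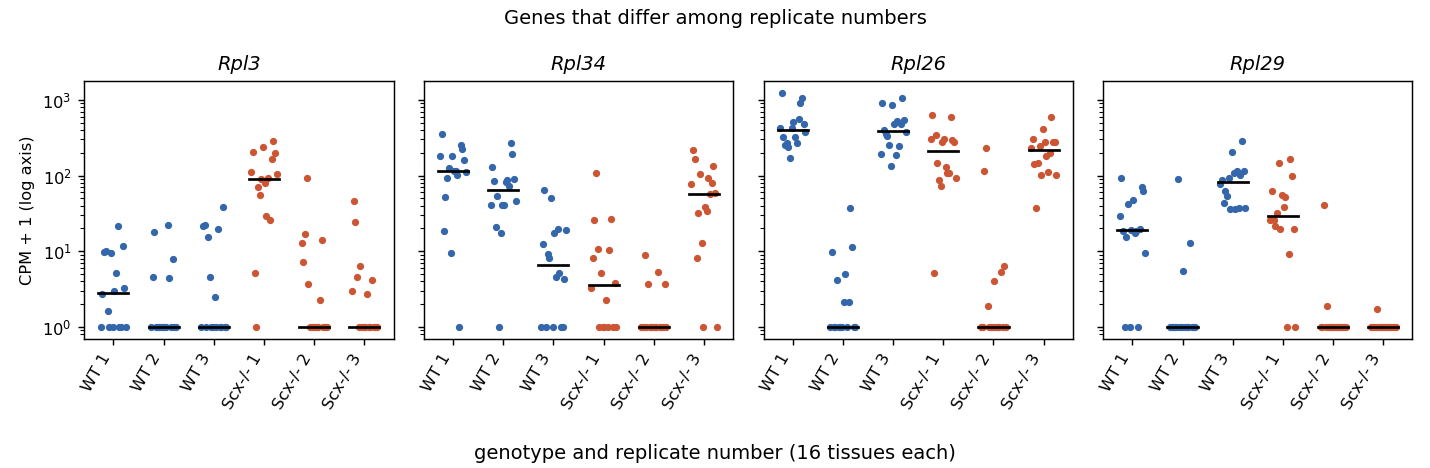
Levels of Rpl3, Rpl34, Rpl26 and Rpl29 as CPM + 1 on a log axis (y) for the 3 wild-type (blue) and 3 Scx-/- (orange) replicate numbers (x), with a point for each of 16 tissues and a line at the median. The median of Rpl26 is at 0 CPM in both numbers 2, and the median of Rpl3 stands above the others in Scx-/- number 1, where its mean is 108.5 CPM.

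Some counts of these genes may lie on other rows of the table. Of 192 rows named as pseudogenes of ribosomal proteins, 94 had a count, and together they took 0.121% to 1.07% of a library (median 0.262%). For 38 of the 88 genes such a row had a count, and for 16 it had more counts than the gene itself. Rps13-ps2 had 18404 counts beside 52 for Rps13, and Rps10-ps1 had 17149 beside 0 for Rps10. Rpl10a-ps1 had 5454 beside 0 for Rpl10a, and Rps25-ps1 had 10533 beside 1217 for Rps25. A gene listed at or near 0 is therefore not shown to be silent, and the levels of the genes named here with a counted pseudogene, Rpl3, Rps25 and Rps26 among them, hold only the reads assigned to the gene's own row.

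Translation and ribosome assembly genes outside the rule were compared from lists. Of 18 genes of translation factors and other TOP mRNAs, 12 were higher in bladder (against 20.4% of all genes) and 12 in spleen (18%), and 8 were lower in cortex (2.84%), where Eef1a2 was higher. Eef1b2, a subunit of the elongation factor exchange complex, was higher in spleen (1.23 ± 0.24), bladder (1.07 ± 0.24) and adipose (1.08 ± 0.27). It had log2 differences of -0.80 ± 0.28 in cortex, -1.31 ± 0.31 in hippocampus and -1.11 ± 0.32 in lung. Eef1a1, the elongation factor of most cells, was higher in bladder (1.38 ± 0.18), rectum (0.86 ± 0.19), liver (0.62 ± 0.20) and spleen (0.55 ± 0.20). It had log2 differences of -1.20 ± 0.24 in heart, -1.05 ± 0.23 in muscle and -0.63 ± 0.22 in cortex. Its isoform Eef1a2, known from muscle and neurons, was higher by 6.52 ± 0.22 in muscle, 5.67 ± 0.23 in cortex, 5.50 ± 0.25 in cartilage, 4.83 ± 0.27 in heart, 4.82 ± 0.26 in hippocampus, 3.31 ± 0.36 in bone and 1.34 ± 0.38 in rectum, of which cartilage and bone carried the skeletal muscle markers. Of 29 ribosome biogenesis genes, 10 were higher in spleen (against 18% of all genes) and 8 in cortex, a smaller share than the 39.4% of all genes. Of 73 mitochondrial ribosomal protein genes, 34 were higher in muscle (against 16.9% of all genes), 23 in kidney (23.4%), 20 in heart (10.3%) and 19 in liver (16.5%), tissues where 2 or 3 cytosolic genes were. Fau, whose product is cleaved to a ribosomal protein and a ubiquitin-like part, was higher in bladder (2.24 ± 0.84) and liver (3.05 ± 0.86). Rack1, a small-subunit scaffold, had a mean above 0 in adipose, intestine and stomach alone among the 16 tissues, at no more than 1.72 CPM, and was too low to be tested.

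Over the 16 tissues the summed share of ribosomal protein counts went with that of the TOP list (Pearson's r = 0.868, Spearman's rho = 0.868), 10 proliferation genes (0.716 and 0.788) and 7 B cell markers (0.639 and 0.518). The values were 0.599 and 0.497 for ribosome biogenesis genes, 0.286 and 0.165 for erythroid genes and 0.0946 and 0.224 for mitochondrial ribosomal protein genes. These points share libraries and their depth. Of 10890 genes outside the rule, those whose group means over 32 tissue and genotype groups were most like the ribosomal protein sum were LOC102634709 (r = 0.956), Gm11478 (0.937), Gm4332 (0.937), Gm10275 (0.923) and Gm10288 (0.907). The transcripts of the last 4 matched those of Rpl13a, Rps20, Rpl12 and Rpl11 over nearly their whole length, with 95.5%, 99.7%, 100% and 99.8% identity, so reads of these genes and copies cannot be told apart with certainty. Eef1b2 came at rank 7 (0.880), and Bop1, of the ribosome biogenesis list, had 0.0988.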

How the data were processed

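RNA of 16 tissues was reverse transcribed with barcodes, pooled and sequenced by the authors with enrichment of 3′ ends (MuSeq), aligned with Bowtie2 at default settings to mm10 and counted per gene with HTSeq. For versions, annotation and strand setting, nothing is given in the sources used here. The deposited values are raw counts per gene, and no column was left unmapped. CPM was computed here on library totals. Tests used edgeR 4.0.16 (TMM, quasi-likelihood, robust, Benjamini-Hochberg over all genes tested, threshold 0.05) in R 4.3.3. Genotypes were compared in the 6 libraries of a tissue after genes at 0 in all 6 were removed. Tissues, and genotypes averaged over tissues, were compared in 1 fit of 32 groups after filterByExpr. Alternatives used RLE, library totals, the ribosomal protein total as library size, other filters, DESeq2 1.42.0, a replicate block, subsets of libraries, and limma 3.58.1. The alternatives without the cartilage library that goes against its label, without Rpl3, Rpl34, Rpl26 and Rpl29, and, for the genotype average, without adipose and vascular, on the ribosomal protein total or by means over tissues, and the block within genotype and the test among replicate numbers, were chosen after seeing the data. A few results on single genes are not reported here. Scripts were tested on simulated data. The members and lists were chosen with earlier results of these data known. Genes were named by role (paralogs with their parents, stalk proteins and Rpsa, 8 genes with known other roles), by level (the highest 5), by the largest and smallest variation in share, by likeness to the sum, or because they passed a genotype test. Other genes named, such as Rps9, Rps20, Rpl32, Rpl36, Rpl41 and the genes without overlap, were chosen after their values were seen. Libraries of few counts give imprecise values, and intervals cover counting error only.

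Whether replicate numbers pair the genotypes could not be decided. Over 3864 genes, wild-type and Scx-/- libraries of 1 tissue and number deviated from their group means with a median correlation of -0.00239, and 0 of 48 pairs were above 0.1. Libraries of the same genotype and number in different tissues had a median of only 0.0255, with 7 of 720 pairs above 0.1. The measure was thus also near 0 where single genes differed among the numbers.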

Additional observations from a re-analysis of the deposited data

Results flagged for a closer look

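Counts on pseudogene rows lie outside the genes chosen by the rule and were above the limit that a count of 0 allows. They reached 1.07% of a library, the largest being Rps13-ps2 with 18404 counts and Rps10-ps1 with 17149 counts. Groups of 3 libraries were not tested for samples that stand apart.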

How the results depend on the processing

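The 0 calls between genotypes in a tissue became 1 in bladder with the replicate block (Rpl26, against 0.112% of all genes). Without a library in turn they ranged from 0 to 1 in bladder (Rpl3 or Rpl34), kidney (Rpl34) and stomach (Rpl3), where the fits with a call called 0.128% and 0.188%, 0.151%, and 0.0416% and 0.153% of all genes. Whether the replicate numbers pair the genotypes is not known, and the block left both genes called in the average over tissues. That count of 2 (0.149% of all genes) was 1 with no filter (0.0845%), 1 without adipose and vascular (0.169%), 0 by means over tissues (0.253%), and 1 to 2 without a replicate number (0.0718% to 0.161%). It was not run without libraries under 100000 counts, where some groups lose every library, nor was the interaction. Genes differing among tissues fell from 51 to 12 (all genes, 81.3% to 89.9%) with the ribosomal protein total as library size, which shows unequal change among the genes alone. Pairs of gene and tissue that were higher (133, 14.9% of pairs over all genes) became 35 on that scale (16.6%), 68 in wild type alone (11.6%) and 81 to 97 without a replicate number (12.4% to 12.7%). Lower pairs (59, 1.45%) became 4 (2.22%), 20 in wild type alone (0.943%), 35 in Scx-/- alone (1.09%) and 29 to 41 without a replicate number (0.592% to 0.736%). The ratio of the highest to the lowest tissue share rose to 5.41 without mitochondrially encoded and abundant genes. The causes were not tested beyond what each setting removes.

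On the ribosomal protein total, log2 differences turned for Rpl4 (-0.196) and Rps20 (-0.22) in adipose, Rpl13a (-0.168), Rpl36al (-0.0915), Rplp0 (-0.0125) and Rpsa (-0.118) in bladder, Rpl13 (-0.234), Rplp1 (-0.0319) and Rps14 (-0.0305) in spleen, Rps14 (0.134) in cortex, and Rpl13a (0.049), Rpl22 (0.0702), Rpl4 (0.368), Rplp1 (0.112) and Rps14 (0.421) in hippocampus. On library totals they turned in adipose for Rpl13a (-0.15), Rpl4 (-0.399), Rps14 (-0.141), Rps20 (-0.399) and Rps27l (-0.0208). In wild type alone they turned for Rps27l in adipose (-0.0057) and Rpsa in intestine (0.0897), the latter also without libraries under 100000 counts (0.472). The other values covered single genes, counts of genes per tissue, shares of tissue and genotype groups, and paralog percents. Of these, 1450 stayed the same, and 300, all for single genes, kept direction and lost the call. The 207 that moved were counts, shares or percents and not differences of single genes.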
